A study of Mus musculus with 24 samples.

Results

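Mouse embryonic fibroblasts in which Cre was used against both Vhl and Rassf1a were compared with fibroblasts of the same genotype that received GFP in its place. The comparison rests on 6 RNA sequencing libraries of the 24 in the series, chosen by their titles: 3 named Vhl/Rassf1a Cre, given as knockout, and 3 named Vhl/Rassf1a GFP, given as control. The cells came from E13.5 embryos, and the other libraries are 3 Cre and 3 GFP libraries each of Vhl, of Rassf1a and of wild-type (WT) cells. Vhl cells and Rassf1a cells are named for 1 altered gene each, and WT cells for none, so that Cre against GFP in WT cells measures Cre set against GFP without these alterations. The labels do not give the strain, the exons altered, how Cre and GFP were delivered, or how many embryos and cultures were used. Should the 3 libraries of a group share 1 culture, the p-values speak for technical spread alone. The title of the series links loss of both genes to DNA damage, to chromosomal instability and to the expression profile of clear cell renal cell carcinoma (ccRCC), the most common kidney cancer. Its design note speaks of single kidney tubule cells, whereas the sample labels give fibroblasts in bulk, and the labels were followed.

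The protein made by Vhl directs a ubiquitin ligase to hypoxia-inducible factors (HIF), whose alpha subunits prolyl hydroxylases mark for it when oxygen is present. Without it the alpha subunits persist in normal air and HIF stays bound to its target genes, which include glucose transporters, glycolytic enzymes, pH regulators and vascular growth factors. Rassf1a is the long form of Rassf1, a scaffold protein that binds microtubules and the Hippo kinases Mst1 and Mst2 (Stk4 and Stk3), and it is often silenced by promoter methylation in kidney cancer. Both genes lie on the short arm of chromosome 3 in humans, which is commonly lost in ccRCC; in the mouse they are on separate chromosomes.

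Library totals were 53.2, 34.7 and 47.8 M counts in Vhl/Rassf1a Cre, against 32.9, 43.2 and 35.4 M counts in Vhl/Rassf1a GFP. The deviations of Vhl/Rassf1a GFP replicate 2 from the mean of the other libraries of its group correlated with the GC content of the genes at 0.806 across 10516 genes. The values were -0.712 and -0.720 in GFP replicates 1 and 3 and -0.169 to 0.099 in the Cre libraries. Deviations within a group depend on one another, so the values of GFP replicates 1 and 3 do not show a separate GC-linked deviation of those libraries. The cells had the profile of fibroblasts: all 14 fibroblast markers passed the filter on low counts, led by Col1a1, and their summed level was 27732 to 29851 CPM in Vhl/Rassf1a Cre, against 27064 to 34570.5 CPM in Vhl/Rassf1a GFP, where CPM are counts per 1000000 counts of the scaled library. Of 14 markers of the kidney proximal tubule, 10 were below 1 CPM over the 6 libraries, and Hnf4a, a defining factor of that epithelium, had 0 counts in all of them. Aqp1 of the same list stood at 282 CPM. Single markers of other cell types were high as well, such as Nes (neural, 362 CPM), Col2a1 (cartilage, 357 CPM) and Acta1 (skeletal muscle, 306 CPM).

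The targeted genes were examined before the rest. Vhl (ENSMUSG00000033933, GRCm38 chromosome 6, 113623959 to 113631633) had 1.81, 2.70 and 1.77 CPM in Vhl/Rassf1a Cre, against 20.8, 21.3 and 23.8 CPM in Vhl/Rassf1a GFP. The Cre values lay about an order of magnitude below those of GFP with no overlap, and Vhl fell (log2 fold change -3.42, SE 0.11, adjusted p = 1.34e-16). Rassf1 (GRCm38 chromosome 9, 107551555 to 107562267) had 42.8, 45.7 and 46.9 CPM in Vhl/Rassf1a Cre, against 30.1, 37.2 and 30.6 CPM in Vhl/Rassf1a GFP. Every Cre library was above every GFP library (log2 fold change 0.47, SE 0.09, adjusted p = 2.81e-04), but counts per gene add up all forms of Rassf1 and the altered exons are not given, so this value does not check the deletion of Rassf1a.

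Car9, a cell surface carbonic anhydrase that acidifies the outside of hypoxic cells and marks most ccRCC, had 49.2, 54.4 and 53.3 CPM in Vhl/Rassf1a Cre, against 1.74, 2.70 and 2.27 CPM in Vhl/Rassf1a GFP. It rose to between 49.2 and 54.4 CPM in every Cre library, while no GFP library exceeded 2.70 CPM (log2 fold change 4.53, SE 0.13, adjusted p = 1.10e-17). Zmynd10 (GRCm38 chromosome 9, 107547298 to 107551319), a close neighbour of Rassf1 that helps to assemble the dynein arms of motile cilia, had 1.15, 1.03 and 0.951 CPM in Vhl/Rassf1a Cre, against 0.299, 0.280 and 0.250 CPM in Vhl/Rassf1a GFP. It stayed near 1 CPM but was higher with Cre in all 3 libraries (log2 fold change 1.91, SE 0.32, adjusted p = 6.04e-05). In Rassf1a cells it was also higher with Cre, at 1.26, 0.949 and 1.39 CPM in Rassf1a Cre against 0.145, 0.106 and 0.142 CPM in Rassf1a GFP (log2 fold change 3.17, SE 0.36, adjusted p = 1.62e-05), whereas in Vhl cells its change was 0.58 (SE 0.39, adjusted p = 0.272) and in WT cells -0.82 (SE 0.40, adjusted p = 0.584). The difference of the Cre effects was 2.73 (SE 0.51, adjusted p = 6.36e-04) against WT and 1.34 (SE 0.52, adjusted p = 0.150) against Vhl cells. Of 17 tested genes of cilium motor assembly and the axoneme, 1 rose (Zmynd10) and 1 fell, against 14.9% and 14.8% of all genes. The gene that fell was Ruvbl1 (-0.38), a chaperone with many other roles. Without GFP replicate 2, 3 genes of this list rose and 2 fell, and with offsets corrected for GC content 3 rose and 1 fell.

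**Figure D1:**
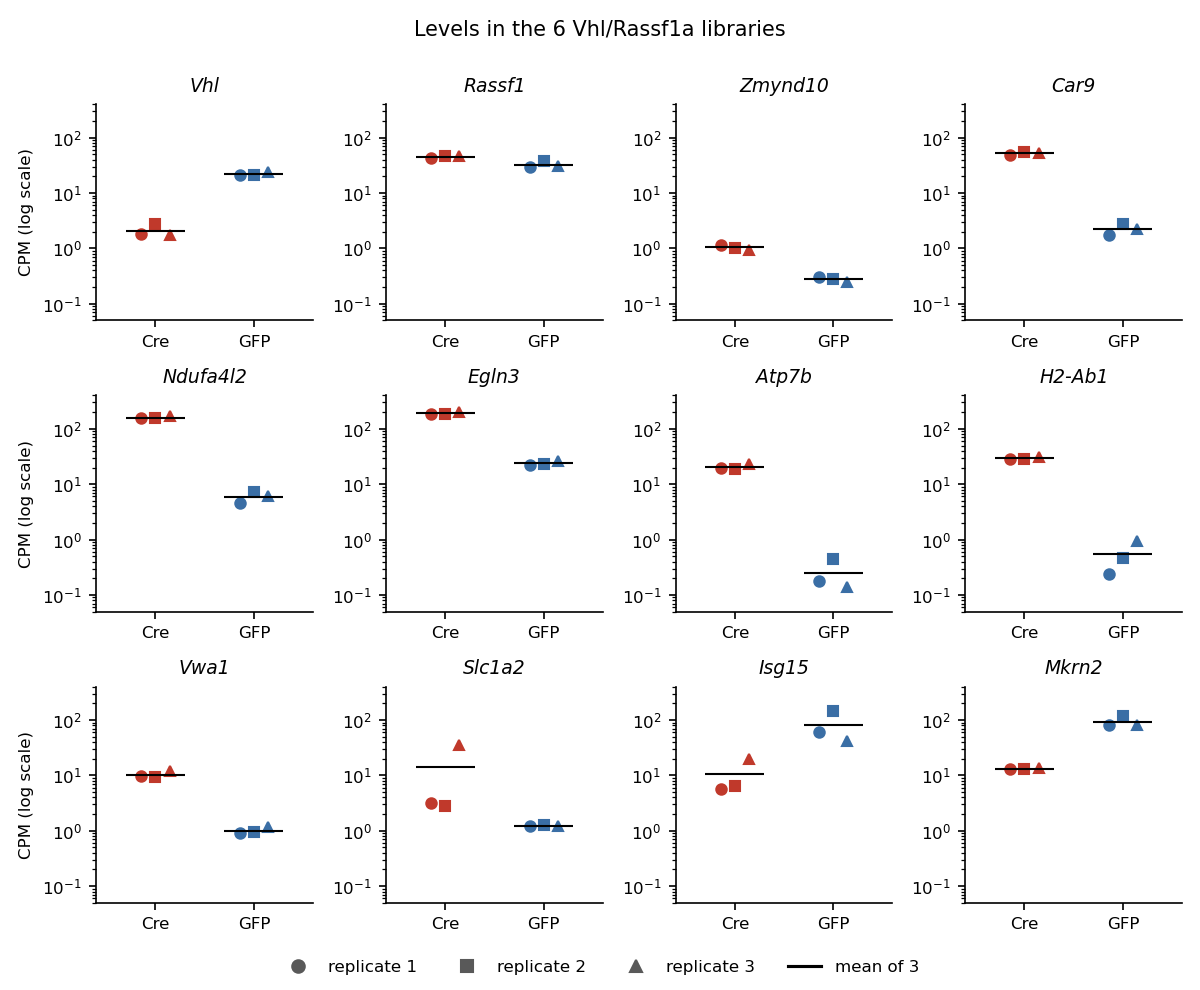
Levels of 12 genes in the 6 Vhl/Rassf1a libraries, in CPM on a log scale, with 1 point per library and the mean of 3 as a line. Vhl was lower in every Cre library, Car9, Ndufa4l2, Egln3, Atp7b, H2-Ab1 and Vwa1 were higher without overlap, Slc1a2 was high in Cre replicate 3, and Isg15 was highest in GFP replicate 2.

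Over all genes, 4919 of 16573 tested genes passed the threshold, an adjusted p under 0.05, or 29.7%. Of these 2466 were higher with Cre (14.9% of genes tested) and 2453 lower (14.8%), and 598 were at least 2-fold higher (3.61%) against 209 at least 2-fold lower (1.26%). The CPM values of the 3 Cre and 3 GFP libraries did not overlap for 39.1% of genes. Without GFP replicate 2 the counts were 2448 higher (14.8%) and 2334 lower (14.1%), of which 2004 and 1865 were the same genes, and none was called in the opposite direction. The median log2 fold change over all genes tested was 0.000268, so that changes of gene groups below are read against a centre near 0. Counts of list members that rose or fell are read against the 14.9% and 14.8% of all genes.

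Genes known to respond to HIF rose almost as a block. Of 22 tested genes of glucose uptake and glycolysis 19 rose and 1 fell, with a median log2 fold change of 1.20, and of 46 other HIF-responsive genes 43 rose and none fell, with a median of 1.41, against the 14.9% of all genes that rose. Without GFP replicate 2 the glycolysis list had 21 genes higher, and the other list 42. That library was the highest GFP library for 20 of the 22 glycolysis genes, against 45.2% of all genes tested. Earlier results on these libraries were known when the lists were made, so their direction is not independent evidence. Bulk libraries cannot tell fewer cells of a type from less RNA per cell, here and in the groups that follow.

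The windows around the start sites of 3 of these genes are shown because they hold the core of the HIF binding site. Each runs from 250 bases before to 50 bases after the start, from the RefSeq windows on GRCm38.p6, and capitals mark ACGTG or GCGTG on either strand (CACGT and CACGC on the strand shown; CACGTG reads as both). Car9 is at chr4:43506776-43507075, plus strand, Pgk1 at chrX:106186850-106187149, plus strand, and Bnip3, chosen after its values were seen, at chr7:138909457-138909756, minus strand.
Car9: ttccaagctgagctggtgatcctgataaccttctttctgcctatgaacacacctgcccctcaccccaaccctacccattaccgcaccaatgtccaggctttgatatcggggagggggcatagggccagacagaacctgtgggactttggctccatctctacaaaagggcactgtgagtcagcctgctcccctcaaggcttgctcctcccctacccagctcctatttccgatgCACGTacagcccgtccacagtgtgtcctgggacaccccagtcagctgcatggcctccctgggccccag
Pgk1: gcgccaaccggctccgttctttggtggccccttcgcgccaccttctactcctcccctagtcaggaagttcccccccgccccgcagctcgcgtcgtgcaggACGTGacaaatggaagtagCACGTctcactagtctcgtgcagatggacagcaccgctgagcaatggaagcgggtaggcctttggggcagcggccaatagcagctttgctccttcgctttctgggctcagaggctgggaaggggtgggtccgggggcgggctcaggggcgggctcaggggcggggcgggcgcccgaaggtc
Bnip3: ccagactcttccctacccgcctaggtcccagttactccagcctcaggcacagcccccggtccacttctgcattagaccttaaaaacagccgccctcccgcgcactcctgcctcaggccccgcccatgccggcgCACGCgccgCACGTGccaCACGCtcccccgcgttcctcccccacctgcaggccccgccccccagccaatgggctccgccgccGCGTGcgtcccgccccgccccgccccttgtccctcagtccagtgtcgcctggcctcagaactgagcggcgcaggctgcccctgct
These letters are common: 61.7% of the 11564 tested genes with a window held at least 1 such match. The share was 15 of 21 in the glycolysis list (71.4%) and 26 of 32 in the other HIF list (81.2%), but 62.4% among all genes that rose and 62.5% among all that fell. A match describes the letters in this window and does not show binding. Ndufa4l2 and Cox4i2 are named without a sequence.

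Among oxygen sensors, Egln3, a HIF prolyl hydroxylase that is itself a HIF target, had 189, 185 and 199.9 CPM in Vhl/Rassf1a Cre, against 22.3, 23.6 and 26.3 CPM in Vhl/Rassf1a GFP (log2 fold change 2.99, SE 0.06, adjusted p = 2.39e-19). Its relative Egln1 also rose (1.97). Hif1a itself fell, to 79.1, 76.2 and 80.9 CPM in Vhl/Rassf1a Cre against 169, 121 and 173 CPM in Vhl/Rassf1a GFP (log2 fold change -0.97, SE 0.10, adjusted p = 1.46e-07). Of the 13 tested genes of this group 4 rose and 2 fell, the second being Arnt2, an alternative partner of the alpha subunits (-0.61). Epas1, which encodes the other main alpha subunit, had a log2 fold change of -0.15 (adjusted p = 0.210), and this gene and Hif3a, a shorter relative that rose by 3.43, were named after their values were seen. Hif3a rests on few reads, at 0.507 to 0.775 CPM in Vhl/Rassf1a Cre against 0.0233 to 0.0832 CPM in Vhl/Rassf1a GFP.

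Genes that adapt mitochondria to low oxygen held several of the highest changes. Ndufa4l2, a paralogue of a respiratory chain subunit, had 155, 156 and 168 CPM in Vhl/Rassf1a Cre, against 4.61, 7.15 and 6.02 CPM in Vhl/Rassf1a GFP (log2 fold change 4.74, SE 0.16, adjusted p = 3.94e-16). Cox4i2, the hypoxic form of a cytochrome oxidase subunit, had 29.9, 31.2 and 32.7 CPM in Vhl/Rassf1a Cre, against 2.12, 2.42 and 2.36 CPM in Vhl/Rassf1a GFP (log2 fold change 3.76, SE 0.12, adjusted p = 8.34e-17). Neither gene had a Cre value within the range of its GFP values. Mgarp, a mitochondrial transport protein, rose by 4.56, Ak4, a mitochondrial adenylate kinase, by 2.34, and the mitophagy receptor Bnip3 by 2.82. Ndufa4, the constitutive paralogue of Ndufa4l2, was lower (-0.60, adjusted p = 1.46e-09); of 42 nuclear genes of oxidative phosphorylation 2 rose and 7 fell, with a median of -0.06, against 14.9% and 14.8% of all genes.

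In glycolysis, Pfkfb3, which makes the activator of phosphofructokinase, had 225, 222 and 223 CPM in Vhl/Rassf1a Cre, against 41.3, 45.5 and 44.6 CPM in Vhl/Rassf1a GFP (log2 fold change 2.35, SE 0.05, adjusted p = 5.47e-19). Pdk1, a kinase that keeps pyruvate out of the citric acid cycle, had 225, 232 and 226 CPM in Vhl/Rassf1a Cre, against 48.5, 44.9 and 54.0 CPM in Vhl/Rassf1a GFP (log2 fold change 2.21, SE 0.07, adjusted p = 3.54e-17). In both genes the lowest Cre library was above the highest GFP library. Aldoc, a fructose bisphosphate aldolase, rose by 3.04, the phosphofructokinase Pfkp by 1.75 and the phosphoglycerate kinase Pgk1 by 1.52. The member that fell was Eno2, the neuronal enolase (-0.61, adjusted p = 1.59e-05), and Pfkm and Pfkfb4 did not pass the test; these 3 were named for their exception.

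Glycogen genes moved on both the synthetic and the breakdown side. Pygl, a glycogen phosphorylase, had 106, 107 and 111 CPM in Vhl/Rassf1a Cre, against 13.2, 13.0 and 13.7 CPM in Vhl/Rassf1a GFP (log2 fold change 3.02, SE 0.07, adjusted p = 3.99e-19). Gys1, glycogen synthase, had 319, 313 and 325 CPM in Vhl/Rassf1a Cre, against 98.6, 118 and 102 CPM in Vhl/Rassf1a GFP (log2 fold change 1.59, SE 0.06, adjusted p = 2.13e-15). The 3 Cre values stood apart from the 3 GFP values in both. Ppp1r3b, which brings a phosphatase to glycogen, rose by 2.20 and Pgm1, a phosphoglucomutase, by 1.78. Of 12 tested members 7 rose and 2 fell, 1 without GFP replicate 2.

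Of 30 transcripts described as raised in ccRCC, a list that overlaps the HIF lists, 28 were tested, and 19 rose and 4 fell, against 14.9% and 14.8% of all genes, with a median of 0.41. The members that fell, named for that, were Scd1, a fatty acid desaturase (-0.61), Ccnd1, cyclin D1 (-0.23), the ectoenzyme Enpp3 (-0.91) and the collagen Col23a1 (-0.60).

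**Figure D2:**
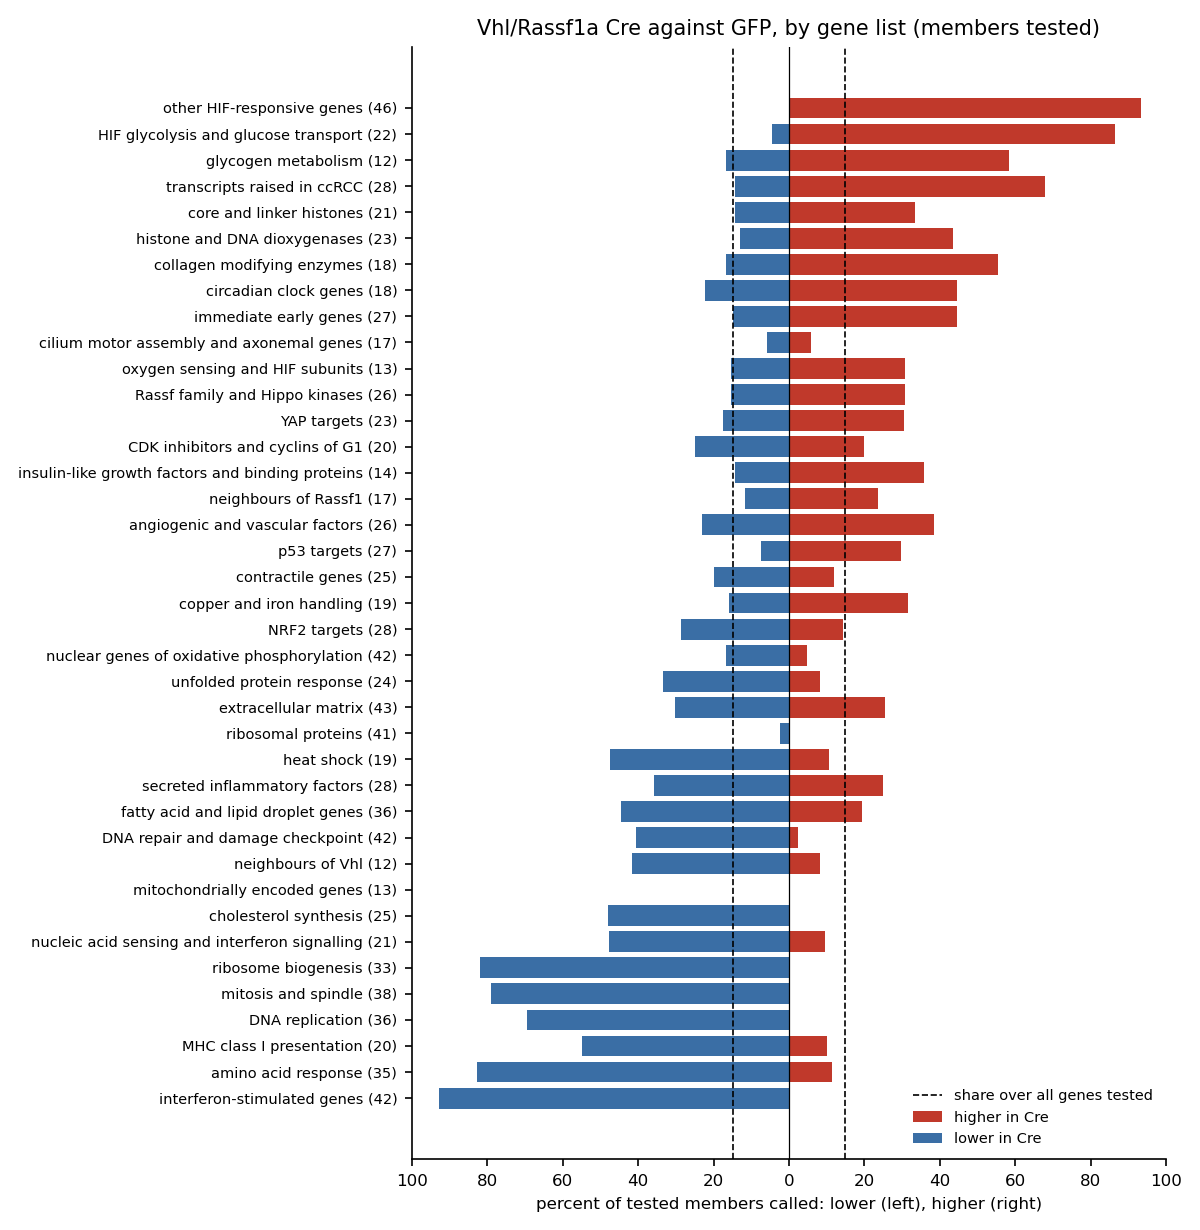
Percent of the tested members of each gene list that passed the threshold in Vhl/Rassf1a Cre against GFP, higher to the right and lower to the left, with lists in order of their median log2 fold change and members tested in brackets. The dashed lines are the shares over all genes tested, 14.9% higher and 14.8% lower; HIF lists stand at the top and interferon-stimulated genes at the bottom.

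The highest log2 fold changes with Cre belonged partly to genes outside the HIF lists used here. Atp7b, a copper exporting ATPase, had 19.8, 18.5 and 22.8 CPM in Vhl/Rassf1a Cre, against 0.180, 0.443 and 0.139 CPM in Vhl/Rassf1a GFP (log2 fold change 6.24, SE 0.21, adjusted p = 4.58e-16). Smtnl2, a smoothelin-like protein, had 13.0, 12.2 and 13.6 CPM in Vhl/Rassf1a Cre, against 0.239, 0.140 and 0.166 CPM in Vhl/Rassf1a GFP (log2 fold change 6.16, SE 0.27, adjusted p = 3.07e-14). The GFP libraries were all below 1 CPM in both genes, and without GFP replicate 2 the log2 fold changes were 6.98 and 5.98. In Vhl cells they were 6.27 and 5.40, and no difference between the genotypes was called for either (adjusted p = 0.983 and 0.478). A2m, a secreted protease inhibitor, rose by 5.93, Kbtbd11, a BTB and kelch domain protein, by 4.77, and Gpr35, a G protein-coupled receptor, by 3.25. The metal-binding metallothioneins Mt1 and Mt2 rose by 1.61 and 1.52. Of 19 tested genes of copper and iron handling 6 rose and 3 fell, against 14.9% and 14.8% of all genes, including the iron importer Slc11a2 (-0.48).

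A pair of these highest genes needs its single values. Slc1a2, a glutamate transporter, had 3.19, 2.79 and 36.0 CPM in Vhl/Rassf1a Cre, against 1.20, 1.26 and 1.22 CPM in Vhl/Rassf1a GFP. Cre replicate 3 was about an order of magnitude above the other Cre libraries, and the fold change (log2 fold change 3.52, SE 0.67, adjusted p = 2.73e-04) fell to 1.28 without it, still past the threshold (adjusted p = 4.24e-05). Vwa1, a matrix protein with a von Willebrand factor domain, had 9.67, 9.53 and 11.8 CPM in Vhl/Rassf1a Cre, against 0.898, 0.932 and 1.17 CPM in Vhl/Rassf1a GFP. Here all 3 Cre libraries were near 10 CPM (log2 fold change 3.37, SE 0.17, adjusted p = 4.39e-13), while in Vhl cells the gene had 1.85, 2.55 and 2.53 CPM in Vhl Cre against 1.19, 1.37 and 1.41 CPM in Vhl GFP, and the difference of the Cre effects was 2.57 (SE 0.25, adjusted p = 2.38e-06).

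Interferon-stimulated genes had the highest share of members lower among the lists with at least 12 tested members. Type I interferons act through transcription factors that include Stat2 and Irf9, which bind a response element in the promoters of these antiviral genes. Of 42 tested members 39 fell and none rose, with a median log2 fold change of -1.80, against 14.8% of all genes that fell. Without GFP replicate 2 the number was 39, with a median of -1.36.

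The start windows of Isg15 (chr4:156200769-156201068, minus strand) and Ifit1 (chr19:34640639-34640938, plus strand) on GRCm38.p6 from RefSeq show the interferon response element. Capitals mark GAAA, any 2 bases and GAAA again on either strand (TTTC, 2 bases and TTTC on the strand shown), and overlapping matches run together.
Isg15: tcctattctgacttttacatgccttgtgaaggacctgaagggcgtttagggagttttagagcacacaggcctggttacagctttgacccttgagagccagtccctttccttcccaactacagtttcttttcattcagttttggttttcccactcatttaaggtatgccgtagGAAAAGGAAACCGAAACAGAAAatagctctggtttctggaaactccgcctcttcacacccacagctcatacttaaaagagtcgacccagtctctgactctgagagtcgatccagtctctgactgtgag
Ifit1: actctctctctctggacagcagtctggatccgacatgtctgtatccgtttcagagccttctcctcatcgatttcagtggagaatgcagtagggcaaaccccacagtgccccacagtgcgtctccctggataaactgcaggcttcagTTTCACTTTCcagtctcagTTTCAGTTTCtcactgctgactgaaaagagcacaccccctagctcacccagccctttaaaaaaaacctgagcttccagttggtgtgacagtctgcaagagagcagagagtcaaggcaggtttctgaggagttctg
This motif was found in 18 of the 30 members with a window (60%), against 2.88% of all tested genes with one, and in 4.45% of all genes that fell. The share is that of a list known for the element and adds nothing about the direction of change.

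Isg15, a ubiquitin-like modifier, had 5.59, 6.43 and 19.9 CPM in Vhl/Rassf1a Cre, against 59.6, 146 and 41.1 CPM in Vhl/Rassf1a GFP (log2 fold change -2.94, SE 0.43, adjusted p = 1.21e-05). Usp18, the protease that removes it, had 3.44, 3.88 and 10.8 CPM in Vhl/Rassf1a Cre, against 28.6, 62.1 and 21.5 CPM in Vhl/Rassf1a GFP (log2 fold change -2.62, SE 0.37, adjusted p = 9.51e-06). GFP replicate 2 was the highest GFP library and Cre replicate 3 the highest Cre library in both, yet the groups did not overlap. That order held across the list: GFP replicate 2 was the highest GFP library for 40 of the 42 members, against 45.2% of all genes tested, and Cre replicate 3 the highest Cre library for 41, against 32.6%. The groups did not overlap for 37 members, against 39.1% of all genes tested, counted in either direction. Ifit1, which binds viral RNA, fell by 2.42, Oasl2, an oligoadenylate synthetase-like protein, by 2.74, Bst2, which tethers virus particles, by 2.11, and the transcription factor Irf7 by 2.12 on the log2 scale. Without GFP replicate 2 the Isg15 value was -2.23 and that of Usp18 -2.03. With offsets corrected for GC content 41 of the 42 members fell and none rose. The part of the GC-linked deviation of GFP replicate 2 in the size of these changes was not tested.

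Of 21 genes of nucleic acid sensing and interferon signalling 10 fell and 2 rose. Those that fell included Tmem173, the adaptor Sting (-0.38), the transcription factor Irf1 (-0.52) and the receptor Tlr2 (-0.59).

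Antigen presentation genes moved in both directions. Of 20 tested genes of MHC class I presentation 11 fell and 2 rose, the heavy chains H2-K1 and H2-T23, with a median of -0.43. Without GFP replicate 2 the median was -0.15 and 8 fell, and without Cre replicate 3 1 rose. B2m, the light chain of class I molecules, had 435, 445 and 489.5 CPM in Vhl/Rassf1a Cre, against 631, 656 and 661 CPM in Vhl/Rassf1a GFP (log2 fold change -0.51, SE 0.06, adjusted p = 2.04e-06), and Nlrc5, their transcriptional activator, fell by 1.31. In a fit of only the 6 libraries compared, 6 of the members fell and none rose. H2-Q7, a non-classical class I heavy chain that shares sequence with close relatives, rose by 3.45. In class II, H2-Ab1, the beta chain of the I-A molecule, had 28.8, 29.1 and 31.4 CPM in Vhl/Rassf1a Cre, against 0.239, 0.466 and 0.943 CPM in Vhl/Rassf1a GFP (log2 fold change 5.75, SE 0.18, adjusted p = 1.34e-16). Its 3 Cre values were all above 28 CPM and no GFP library reached 1 CPM. In Vhl cells H2-Ab1 rose by 5.70, and the difference of the Cre effects was 0.05 (SE 0.28, adjusted p = 0.955). H2-Eb1 also rose, at a lower level (1.09 ± 0.250 CPM in Vhl/Rassf1a Cre and 0.424 ± 0.103 CPM in Vhl/Rassf1a GFP, SD, n = 3 each), and 4 of the 6 tested class II genes did not pass. Of macrophage markers 6 of 11 passed the filter and 1 rose, Cd68 (0.54), or 2 without GFP replicate 2; their summed level was 8.24 to 9.36 CPM in Vhl/Rassf1a Cre, against 5.52 to 7.39 CPM in Vhl/Rassf1a GFP, and Adgre1 had 0 counts in all 6 libraries.

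**Figure D3:**
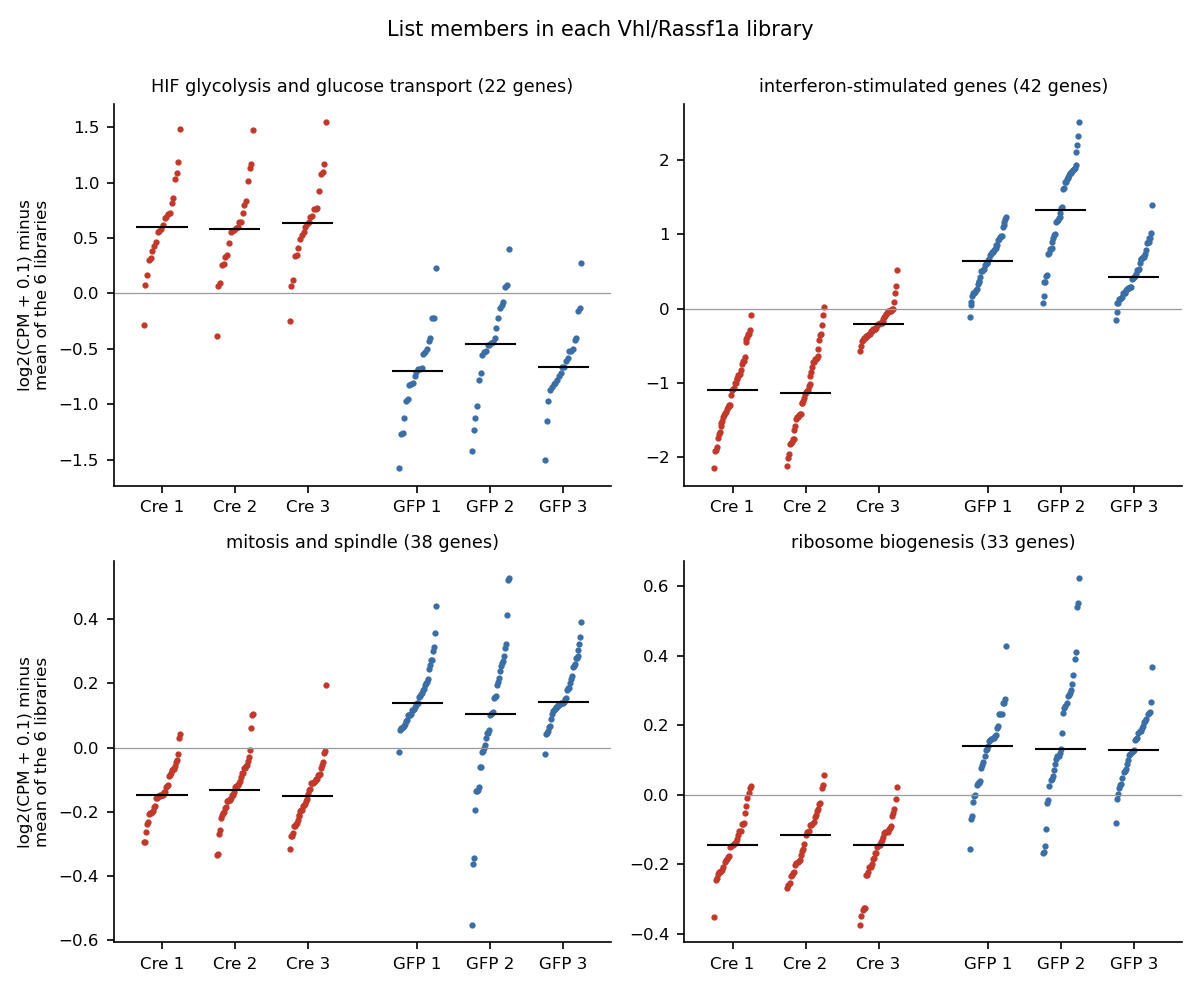
Each point is 1 gene of a list in 1 Vhl/Rassf1a library, as log2(CPM + 0.1) minus the gene's mean over the 6 libraries, with the median as a line. Interferon-stimulated genes had medians of -1.09, -1.14 and -0.20 in Cre and 0.64, 1.33 and 0.42 in GFP replicates 1 to 3, whereas mitosis and ribosome biogenesis genes kept similar medians within each group. Glycolysis genes had medians of -0.70, -0.46 and -0.66 in GFP replicates 1 to 3, with replicate 2 the highest.

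Genes of cell division were lower, by small amounts. Of 38 tested genes of mitosis and the spindle 30 fell and none rose, with a median of -0.29. Bub1b, a kinase-like protein of the spindle checkpoint, had 41.8, 41.4 and 39.3 CPM in Vhl/Rassf1a Cre, against 54.6, 57.3 and 54.0 CPM in Vhl/Rassf1a GFP (log2 fold change -0.44, SE 0.05, adjusted p = 7.75e-07). Top2a, the topoisomerase that untangles chromosomes, had 167, 175 and 165 CPM in Vhl/Rassf1a Cre, against 231, 199.7 and 235 CPM in Vhl/Rassf1a GFP (log2 fold change -0.39, SE 0.06, adjusted p = 1.53e-05). The groups did not overlap in either gene. Ccna2, cyclin A2, changed by -0.50 and the centrosomal kinase Nek2 by -0.36.

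DNA replication genes were lower in the same way, 25 of 36 with none higher and a median of -0.34. Mcm6, a subunit of the replicative helicase, had 74.3, 77.1 and 77.1 CPM in Vhl/Rassf1a Cre, against 104, 112 and 105 CPM in Vhl/Rassf1a GFP (log2 fold change -0.49, SE 0.04, adjusted p = 4.72e-09). Uhrf1, which maintains DNA methylation at the fork, fell by 0.68, and Mcm10 by 0.68. In DNA repair and damage checkpoint genes 17 of 42 fell and 1 rose, with a median of -0.14: the Fanconi anaemia genes Fanca (-0.65) and Fanci (-0.58), Rad54l of homologous recombination (-0.49) and Parp1, a sensor of strand breaks (-0.49), were lower, and the kinase Chek2 was the 1 that rose (0.29, named for that); none rose without GFP replicate 2 or without Cre replicate 3. A fit of only the 6 libraries compared called 10 of the repair genes lower.

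Targets of p53, which damage can induce, were mixed: 8 of 27 rose and 2 fell, with a median of 0.01, against background shares of 14.9% and 14.8%. Cdkn1a, the cell cycle inhibitor p21, had 616, 613 and 628 CPM in Vhl/Rassf1a Cre, against 474, 549 and 478 CPM in Vhl/Rassf1a GFP (log2 fold change 0.31, SE 0.06, adjusted p = 1.91e-04). Mdm2, the ligase that restrains p53, had 326, 330.2 and 328 CPM in Vhl/Rassf1a Cre, against 258, 230.4 and 253 CPM in Vhl/Rassf1a GFP (log2 fold change 0.41, SE 0.05, adjusted p = 3.50e-07). Both were modestly above their GFP values in each Cre library. Among cyclins and inhibitors of G1, Ccng2, a cyclin linked to arrest, rose by 1.48, while Cdkn2c, an inhibitor of Cdk4 and Cdk6, fell by 0.67 and Ccnd1 by 0.23; 4 of 20 rose and 5 fell.

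Biosynthetic programmes were lower as well. Of 35 genes of the amino acid response, which Atf4 drives, 29 fell and 4 rose, with a median of -0.43. Slc7a5, a transporter of large neutral amino acids, had 33.2, 34.3 and 32.7 CPM in Vhl/Rassf1a Cre, against 116, 130.1 and 114 CPM in Vhl/Rassf1a GFP (log2 fold change -1.85, SE 0.06, adjusted p = 5.95e-16). Mthfd2, a mitochondrial enzyme of one-carbon metabolism, had 29.1, 30.4 and 29.1 CPM in Vhl/Rassf1a Cre, against 69.0, 74.0 and 74.3 CPM in Vhl/Rassf1a GFP (log2 fold change -1.29, SE 0.05, adjusted p = 4.74e-15). The groups were far apart in both. The risers included Vldlr (2.30) and Stc2 (1.88), which are known HIF targets and stand in the HIF list too.

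Ribosome biogenesis genes fell in 27 of 33 cases with none higher, and a median of -0.27, while 1 of 41 ribosomal protein genes fell and none rose (median -0.09). Dkc1, a pseudouridine synthase of ribosomal RNA, had 32.6, 35.7 and 33.1 CPM in Vhl/Rassf1a Cre, against 56.1, 45.0 and 53.7 CPM in Vhl/Rassf1a GFP (log2 fold change -0.61, SE 0.07, adjusted p = 2.67e-07). Polr1a and Polr1b, the large subunits of RNA polymerase I, fell by 0.39 and 0.46. A fit of only the 6 libraries compared called 16 of the 33 lower.

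Of 25 cholesterol synthesis genes 12 fell and none rose, with Dhcr7, the last enzyme of the pathway, at -0.59; in a fit of the 6 libraries alone 7 fell. Of 36 genes of fatty acids and lipid droplets 16 fell and 7 rose (over all genes 14.8% and 14.9%), among them the droplet protein Hilpda, a HIF target (1.73), against Fads1, a desaturase (-0.65), and Cpt1a, the gate of mitochondrial fatty acid import (-0.68). Heat shock genes fell in 9 of 19 cases and rose in 2, or 1 without Cre replicate 3, with the mitochondrial chaperonins Hspd1 (-0.43) and Hspe1 (-0.46) as examples. In the unfolded protein response 8 of 24 fell and 2 rose, and among NRF2 targets 8 of 28 fell, such as Txnrd1 (-0.51), and 4 rose, such as Hmox1 (0.67), the same shares of all genes being the background. None of the 13 genes encoded by mitochondrial DNA passed. GFP replicate 2 was the lowest GFP library in all of them, and without it 5 fell. The subunit mt-Co1 of cytochrome oxidase, named after its values were seen, had 4022, 3971 and 3936 CPM in Vhl/Rassf1a Cre, against 5702, 2800.3 and 5702 CPM in Vhl/Rassf1a GFP.

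Matrix genes moved both ways, 11 of 43 up and 13 down, against 14.9% and 14.8% of all genes, with a median of -0.07. Islr, a secreted leucine-rich repeat protein, had 3.68, 2.81 and 4.37 CPM in Vhl/Rassf1a Cre, against 9.78, 14.0 and 11.7 CPM in Vhl/Rassf1a GFP (log2 fold change -1.70, SE 0.15, adjusted p = 1.15e-08). Mfap5, a microfibril protein, had 41.2, 39.8 and 37.6 CPM in Vhl/Rassf1a Cre, against 22.9, 22.3 and 24.6 CPM in Vhl/Rassf1a GFP (log2 fold change 0.77, SE 0.07, adjusted p = 2.26e-08). The shifts went in opposite directions, each without overlap. Fmod, a collagen-binding proteoglycan, fell by 0.77 and Lamc1, a laminin chain, by 0.58.

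Enzymes that modify collagen were mostly higher, with 10 of 18 higher and 3 lower (over all genes 14.9% and 14.8%). Plod2, a lysyl hydroxylase, had 674, 693 and 695 CPM in Vhl/Rassf1a Cre, against 218, 156 and 222 CPM in Vhl/Rassf1a GFP (log2 fold change 1.79, SE 0.11, adjusted p = 2.01e-11). P4ha2, a prolyl hydroxylase, rose by 1.56, Loxl2, a lysyl oxidase, by 1.24 and Plod1 by 1.13. Like these hydroxylases, histone and DNA demethylases of the dioxygenase family use oxygen, and 10 of 23 of them rose and 3 fell, 1 without GFP replicate 2. Among them Kdm4b rose by 0.99, Jmjd6 by 0.84, Kdm3a by 0.81 and the RNA demethylase Alkbh5 by 0.69.

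Of 26 angiogenic and vascular factors 10 rose and 6 fell, against 14.9% and 14.8% of all genes. Vegfa, the main vascular growth factor, had 271, 273 and 289 CPM in Vhl/Rassf1a Cre, against 130.3, 153 and 135 CPM in Vhl/Rassf1a GFP (log2 fold change 1.00, SE 0.05, adjusted p = 2.47e-12). Pgf, placental growth factor, had 12.8, 11.8 and 12.9 CPM in Vhl/Rassf1a Cre, against 3.05, 4.45 and 3.25 CPM in Vhl/Rassf1a GFP (log2 fold change 1.79, SE 0.15, adjusted p = 2.51e-09). Cre values were above GFP values in each. The peptide hormone Adm, adrenomedullin, rose by 0.95 and Ackr3, a scavenging chemokine receptor, by 0.88. Clock genes rose in 8 of 18 cases and fell in 4, beside the same background, led by the repressors Ciart (2.41), Bhlhe41 (1.58) and Bhlhe40 (0.95) and the activator Rora (1.44).

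Secreted inflammatory factors were split, 7 of 28 higher and 10 lower, against 14.9% and 14.8% of all genes; the other lists of this paragraph have the same background. Il1rn, the antagonist of the interleukin-1 receptor, had 14.7, 13.8 and 17.6 CPM in Vhl/Rassf1a Cre, against 43.0, 37.9 and 53.2 CPM in Vhl/Rassf1a GFP (log2 fold change -1.54, SE 0.12, adjusted p = 2.10e-09). Il1rl1, the receptor of interleukin-33, fell by 1.03 and the chemokine Cx3cl1 by 0.81. Immediate early genes included 12 of 27 that rose, such as Ier3 (1.36) and Maff (1.05), and 4 that fell, or 2 without GFP replicate 2, such as Egr1 (-0.65). Among 14 insulin-like growth factors and binding proteins 5 rose, Igf1 by 1.14 and the imprinted RNA H19 by 0.49, and 2 fell, Igf2r, the receptor that clears Igf2, by 0.38. Of 25 contractile genes 3 rose and 5 fell, shares close to those over all genes; 6 rose without GFP replicate 2, 1 without Cre replicate 3 and 1 in a fit of the 6 libraries alone. Of 21 core and linker histone genes 7 rose and 3 fell, with 1 lower without GFP replicate 2 and 1 in that fit.

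Changes in the Hippo pathway, to which Rassf1a is linked, were small in size. Of 26 tested genes of the Rassf family and the pathway 8 rose and 4 fell, each by less than 2-fold, against 14.9% and 14.8% of all genes. The adaptor Sav1 rose by 0.35, the kinases Lats2 by 0.25 and Stk4 by 0.22, and the co-activator Wwtr1 (Taz) by 0.25; Rassf7 fell by 0.61 and the scaffold Wwc1 by 0.57. Yap1 had 236, 239 and 232 CPM in Vhl/Rassf1a Cre, against 228, 209 and 227 CPM in Vhl/Rassf1a GFP, values that lie close together (log2 fold change 0.09, SE 0.04, adjusted p = 0.0874). Of 23 known YAP targets 7 rose and 4 fell, beside the same background, and the number that fell was 2 without GFP replicate 2, 2 without Cre replicate 3 and 1 in a fit of the 6 libraries alone. Ccn2, a secreted matricellular protein, had 946, 996 and 937 CPM in Vhl/Rassf1a Cre, against 774, 693 and 755 CPM in Vhl/Rassf1a GFP (log2 fold change 0.37, SE 0.07, adjusted p = 2.15e-04). Ankrd1, a muscle ankyrin repeat protein, rose by 0.68 and F3, tissue factor, by 0.70.

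Genes beside the targets on the chromosomes were followed as well, and over all genes 14.9% rose and 14.8% fell. Near Rassf1 4 of 17 rose, Zmynd10, Slc38a3 (2.47), Hyal1 (0.86) and Naa80 (0.48), and 2 fell, Ifrd2 (-1.49) and Lsmem2 (-1.18), which did not pass without Cre replicate 1 or 3 or GFP replicate 1 or 2 (adjusted p = 0.0774 to 0.173). Without GFP replicate 2, 6 of these neighbours rose and 1 fell, and with offsets corrected for GC content 6 rose and 2 fell. Ifrd2 also fell in WT cells with Cre (log2 fold change -0.98, SE 0.14, adjusted p = 3.96e-04), and the difference of the 2 effects was -0.51 (SE 0.19, adjusted p = 0.0859). Near Vhl 1 of 12 rose, none without Cre replicate 3, and 5 fell, and without GFP replicate 2 3 fell, Mkrn2 and Fancd2 among them. Mkrn2, a RING finger protein of that group, had 12.9, 13.3 and 13.4 CPM in Vhl/Rassf1a Cre, against 82.7, 119 and 80.7 CPM in Vhl/Rassf1a GFP (log2 fold change -2.84, SE 0.12, adjusted p = 1.24e-14). The Fanconi anaemia gene Fancd2 fell by 0.45.

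Set against WT cells, Cre in double-deleted cells differed in effect for 2454 genes (14.8%), 1228 higher (7.41%) and 1226 lower (7.4%). In WT cells alone 209 genes passed (1.26%), 138 higher (0.833%) and 71 lower (0.428%). HIF genes were part of what differed: of the 22 glycolysis genes 19 had a higher effect than in WT, and of the 46 other HIF-responsive genes 40. The WT effect on Car9 was 0.12 (SE 0.14, adjusted p = 0.967). Interferon-stimulated genes had a lower effect than in WT for 35 of 42 members.

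A pair of genes that fell steeply with Cre did so in WT cells too. Mkrn2 had 11.7, 12.3 and 12.1 CPM in WT Cre against 88.9, 85.1 and 87.6 CPM in WT GFP, and the difference of the effects was 0.02 (SE 0.16, adjusted p = 0.958). Eml5, a microtubule-associated protein, had 5.69, 4.97 and 5.62 CPM in Vhl/Rassf1a Cre, against 66.7, 85.7 and 66.7 CPM in Vhl/Rassf1a GFP (log2 fold change -3.74, SE 0.15, adjusted p = 4.74e-15). In WT cells it had 4.34, 3.69 and 5.13 CPM in WT Cre against 68.8, 65.8 and 95.9 CPM in WT GFP, with a difference of the effects of 0.39 (SE 0.21, adjusted p = 0.256). Both stand among the lowest genes of the double deletion without a called difference from WT cells.

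The comparison with Vhl cells sets the Cre effect with both genes altered beside that with Vhl altered alone, and these effects share no library. The 2 genotypes are separate cells, and the embryos they came from are not given. The alteration of Rassf1a therefore cannot be told apart from other differences between these cells. In Vhl cells 5991 genes passed (36.1%), 2884 higher (17.4%) and 3107 lower (18.7%). Across the 16573 genes the log2 fold changes of the 2 genotypes correlated at 0.744 (Pearson), against 0.232 with WT and 0.180 with Rassf1a cells; genes are not independent replicates and all libraries share one fit. Of the 2466 genes higher in double-deleted cells 72% were also higher in Vhl cells, which is 61.5% of those higher there, and 31 were lower there. Of the 2453 lower genes 69% were also lower in Vhl cells, or 54.5% of those lower there, and 25 were higher there. In Rassf1a cells alone 65 genes passed (0.392%), and 24 of their 31 higher genes (0.187% of genes tested) and 24 of their 34 lower genes (0.205%) were called the same way in the double. Of these genes 2 that were higher and 4 that were lower in Rassf1a cells were called the opposite way. Rassf1a GFP replicate 1 also had a GC-linked deviation (correlation 0.792, against -0.633 and -0.734 in Rassf1a GFP replicates 2 and 3). Its part in the number of genes called in Rassf1a cells was not tested.

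**Figure D4:**
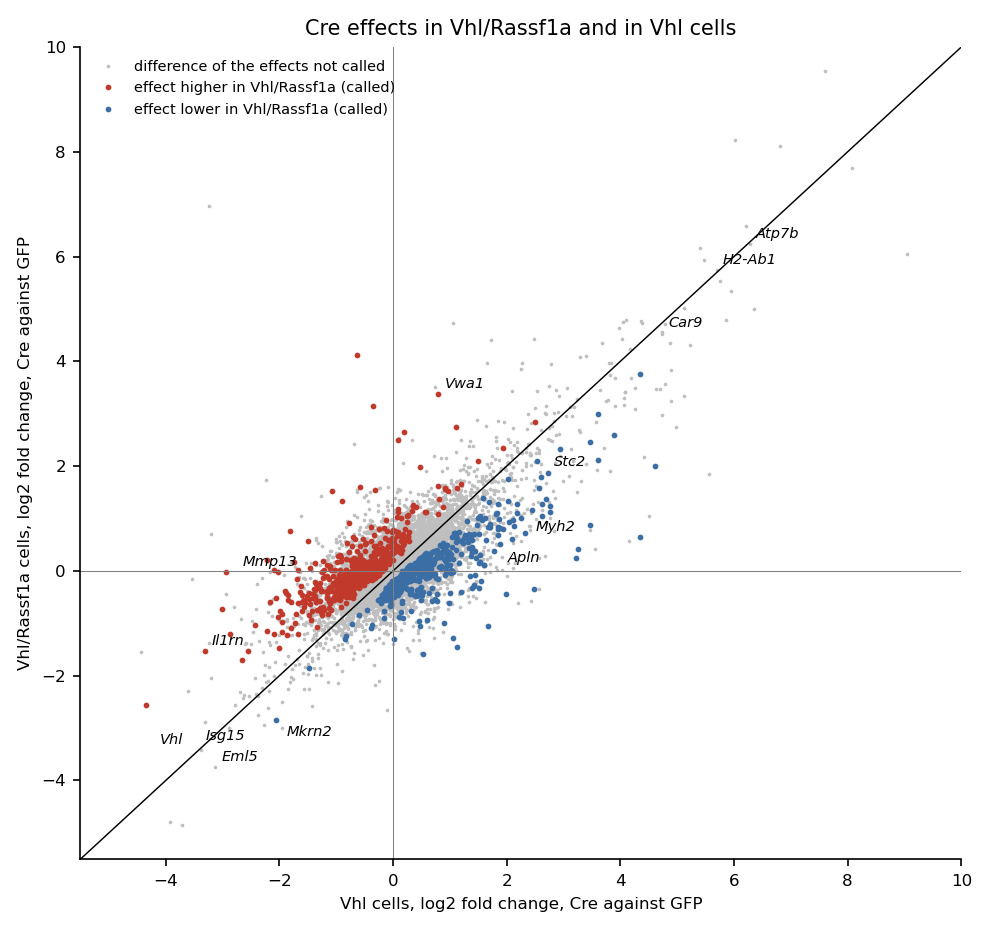
Log2 fold change of Cre against GFP in Vhl/Rassf1a cells (vertical) and in Vhl cells (horizontal) for all genes tested, except 1 gene outside the range drawn. Coloured points are the 1010 genes whose effects differed, 570 higher and 440 lower in Vhl/Rassf1a cells, and the line marks equal effects; Car9, Atp7b, H2-Ab1 and Vhl lie near it, and Vwa1, Il1rn, Apln and Myh2 away from it.

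Effects of Cre differed between Vhl/Rassf1a and Vhl cells for 1010 genes (6.09%), 570 with a higher effect in the double (3.44%) and 440 with a lower one (2.65%). For the leading HIF genes no difference was called: it was 0.36 (SE 0.21, adjusted p = 0.424) for Ndufa4l2 and -0.20 (SE 0.18, adjusted p = 0.648) for Car9. Of the 22 glycolysis genes 2 had a higher (1 without Cre replicate 3) and 2 a lower effect, and of the 46 other HIF-responsive genes 4 and 7. Egln3 (difference -0.62, SE 0.08, adjusted p = 7.16e-05) and Stc2 (difference -0.85, SE 0.11, adjusted p = 4.53e-05) rose less in double-deleted cells, and Pfkfb3 rose more (difference 0.41, SE 0.07, adjusted p = 0.00117). None of the 42 interferon-stimulated genes had a called difference, against 1 with a higher effect without GFP replicate 2 and 2 with a lower one without Cre replicate 3, and their medians were -1.80 in Vhl/Rassf1a and -1.45 in Vhl cells.

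Mitosis genes differed as a group. In Vhl cells 37 of 38 fell with Cre, with a median of -0.78, against 30 with a median of -0.29 in double-deleted cells, and 29 of the 38 had a higher effect in the double with none lower. Bub1b had 20.2, 20.8 and 22.4 CPM in Vhl Cre against 42.4, 40.0 and 40.0 CPM in Vhl GFP, and the difference of the effects was 0.51 (SE 0.07, adjusted p = 1.49e-04). Nek2 had 20.2, 20.5 and 20.1 CPM in Vhl/Rassf1a Cre, against 24.9, 26.5 and 26.7 CPM in Vhl/Rassf1a GFP, and it had 9.46, 9.80 and 10.1 CPM in Vhl Cre against 18.4, 17.9 and 17.8 CPM in Vhl GFP (difference 0.52, SE 0.07, adjusted p = 1.12e-04). In both genes the Vhl/Rassf1a Cre libraries were above the Vhl Cre libraries, and the Vhl/Rassf1a GFP libraries above the Vhl GFP libraries. None of the 36 replication genes had a called difference between the effects.

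Ribosome biogenesis and amino acid genes differed the other way. In Vhl cells 7 of 33 ribosome biogenesis genes fell and 4 rose (median -0.08), and 11 had a lower effect in the double, none a higher one, though 7 in the fit with a replicate block and 6 in the fit of only the groups compared. Polr1a had 75.4, 75.3 and 72.3 CPM in Vhl Cre against 76.2, 77.3 and 79.6 CPM in Vhl GFP, groups that lie close together, while in Vhl/Rassf1a cells it had 75.7, 70.9 and 72.3 CPM with Cre against 93.4, 99.6 and 93.2 CPM with GFP (difference -0.32, SE 0.06, adjusted p = 0.00266). Of 35 amino acid response genes 12 had a lower effect in the double and 1 a higher one, Mthfd2 (difference -0.45, SE 0.07, adjusted p = 3.25e-04) and Slc7a5 (difference -0.36, SE 0.09, adjusted p = 0.0151) among the lower.

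Matrix and inflammatory genes had mainly higher effects in the double, 19 against 2 lower of 43 matrix genes and 8 against 1 of 28 inflammatory factors, with none lower without Cre replicate 3. Among genes with a mean of at least 5 CPM over the 12 libraries the difference was highest for Il1rn (1.77 (SE 0.17, adjusted p = 2.30e-06)), which had 22.2, 21.2 and 21.9 CPM in Vhl Cre against 248, 209 and 187 CPM in Vhl GFP. Its level in Vhl/Rassf1a GFP, 37.9 to 53.2 CPM, was below that in every Vhl GFP library, so the controls of the 2 genotypes differ as well. Mmp3 and Mmp13, secreted metalloproteases, fell in Vhl cells (-1.24 and -1.26) and did not pass in double-deleted cells (0.19 and -0.03), and the difference was 1.43 (SE 0.17, adjusted p = 2.15e-05) for Mmp3, with that of Mmp13 at 1.23 (SE 0.19, adjusted p = 2.21e-04). Col18a1, a basement membrane collagen, fell in both, by 0.59 in the double and 1.80 in Vhl cells (difference 1.21, SE 0.17, adjusted p = 1.01e-04). Sned1, a matrix protein, had a difference of 1.22 (SE 0.10, adjusted p = 3.38e-07), the protease inhibitor Pi15 one of 1.36 (SE 0.31, adjusted p = 0.00926), Pamr1 one of 1.22 (SE 0.17, adjusted p = 1.12e-04) and the arginine transporter Slc7a2 one of 1.17 (SE 0.17, adjusted p = 1.71e-04).

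Among the named genes with a lower effect in the double were a myosin and a vascular peptide. Myh2, a fast skeletal myosin, had 9.54, 10.6 and 9.46 CPM in Vhl/Rassf1a Cre, against 5.92, 5.85 and 6.05 CPM in Vhl/Rassf1a GFP, and it had 28.3, 32.5 and 34.6 CPM in Vhl Cre against 5.78, 6.62 and 6.66 CPM in Vhl GFP (difference -1.59, SE 0.12, adjusted p = 1.25e-07). Apln, the vascular peptide apelin, had 122, 121 and 119 CPM in Vhl/Rassf1a Cre, against 79.7, 82.4 and 74.5 CPM in Vhl/Rassf1a GFP, and 92.7, 97.8 and 94.7 CPM in Vhl Cre against 19.0, 22.7 and 25.0 CPM in Vhl GFP (difference -1.48, SE 0.12, adjusted p = 2.92e-07). For Myh2 the GFP levels of both genotypes were alike and the Cre levels differed, whereas for Apln the GFP level was already higher in Vhl/Rassf1a cells. Myh1 had a difference of -1.52 (SE 0.16, adjusted p = 4.33e-06), Sfrp2, a secreted Wnt antagonist, of -1.37 (SE 0.21, adjusted p = 2.44e-04), the potassium channel subunit Kcnf1 of -1.23 (SE 0.16, adjusted p = 4.54e-05), Kank4 of -1.23 (SE 0.17, adjusted p = 1.01e-04), the phosphatase Ptprb of endothelium of -1.08 (SE 0.08, adjusted p = 1.25e-07) and the chloride channel protein Clic5 of -1.07 (SE 0.24, adjusted p = 0.00669).

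**Figure D5:**
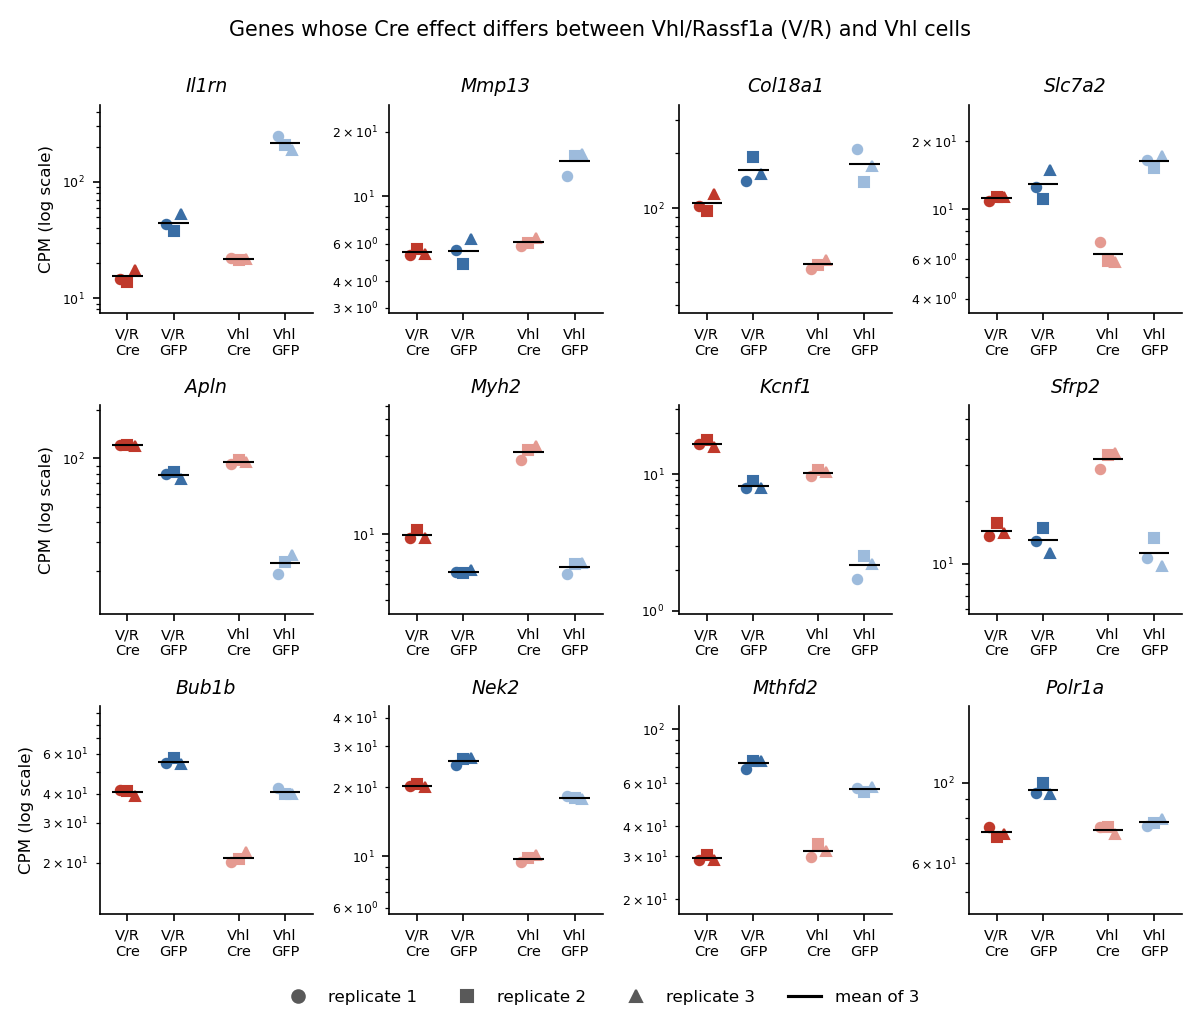
Levels of 12 genes in Vhl/Rassf1a (V/R) and Vhl libraries, in CPM on a log scale that differs between panels, with 1 point per library and the mean of 3 as a line. Il1rn and Apln differ between the GFP groups of the 2 genotypes, Mmp13 was lower and Sfrp2 higher with Cre in Vhl cells but not past the threshold in Vhl/Rassf1a cells, and Bub1b and Nek2 were higher in both Vhl/Rassf1a groups than in the matching Vhl groups.

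Counts for markers of other cell types stand beside the shares over all genes, 14.9% higher and 14.8% lower. Of 12 epithelial markers 9 were below 1 CPM over the 6 libraries, among them the adhesion molecule Cdh1, and 3 of 7 tested rose, with the keratins Krt19 at 1.28 and Krt18 at 0.85. Their summed level was 194 to 202 CPM in Vhl/Rassf1a Cre, against 75.6 to 97.8 CPM in Vhl/Rassf1a GFP, nearly all of it Krt19, and 3 had a lower effect in Vhl/Rassf1a than in Vhl cells, or 1 without GFP replicate 2 and 1 without Cre replicate 3. The same keratins stand in the mesothelial list, of which 4 of 8 tested members rose.

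Of 14 skeletal muscle markers 11 were below 1 CPM, and 2 of 7 tested rose, the actin Acta1 by 1.33 and the filament protein Des by 0.35, which missed the threshold without Cre replicate 1 or 3 or GFP replicate 1 or 3 (adjusted p = 0.0535 to 0.0911). Their summed level was 466 to 489.6 CPM in Vhl/Rassf1a Cre, against 195 to 246 CPM in Vhl/Rassf1a GFP. For this list and the next, the shares over all genes were 14.9% higher and 14.8% lower. Endothelial markers rose in 3 of 10 cases, such as Emcn (0.88), and 1 fell, the transcription factor Erg (-1.04), with the defining Pecam1 and Cdh5 below 1 CPM; their summed level was 203 to 207 CPM in Vhl/Rassf1a Cre, against 167 to 169.7 CPM in Vhl/Rassf1a GFP.

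Fat markers fell in 5 of 6 cases, the transcription factor Cebpa by 1.53 and the droplet protein Plin4 by 1.29, at a summed level of 36.6 to 39.2 CPM in Vhl/Rassf1a Cre, against 62.1 to 64.1 CPM in Vhl/Rassf1a GFP. Of 12 cartilage markers 3 fell, the proteoglycan Acan by 1.29, and of 10 neural markers 5 rose and 2 fell. Summed levels of the cartilage list were 380 to 406 CPM in Vhl/Rassf1a Cre, against 352 to 516 CPM in Vhl/Rassf1a GFP. For the neural list they were 645 to 667 CPM against 532 to 583 CPM, and for the proximal tubule list 274 to 285 CPM against 337 to 359 CPM. The background for all lists of this paragraph is 14.9% of all genes higher and 14.8% lower. In the proximal tubule list 2 of 6 tested rose, or 1 without GFP replicate 2 and 1 without Cre replicate 3, the endocytic receptor Lrp2 by 0.80, and 1 fell, the water channel Aqp1 by 0.38. None of 9 erythroid markers passed the filter. Among fibroblast markers 1 rose, the proteoglycan Dcn (0.74), and 1 fell, the growth factor receptor Pdgfrb (-0.63), or 3 without GFP replicate 2. The part of such cells in the changes of other genes was not tested.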

How the data were processed

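RNA from mouse embryonic fibroblasts was isolated with a NucleoSpin RNA kit and turned into TruSeq Stranded libraries, per the labels' protocols. The submitters' processing notes name Trimmomatic 0.38, STAR 2.5.2b and GRCm38; how reads were counted, and whether by strand, is not given in the sources used here. Overlapping and near-identical genes are therefore uncertain. The authors deposited raw counts for 45706 Ensembl gene IDs, of which 45143 matched a GENCODE M21 symbol. All 8 groups (24 libraries, each in a group named by its title) were fitted in 1 model with edgeR 4.0.16 in R 4.3.3: TMM scaling, a filter on low counts (minimum count 10, minimum total 15) that kept 16573 genes, and the quasi-likelihood test with 16 residual degrees of freedom and Benjamini-Hochberg adjustment over all genes at 0.05. The common coefficient of biological variation was 7.73%. CPM are counts per 1000000 of the TMM-scaled library size, and errors of log2 fold changes are standard errors from the test. A difference of Cre effects is the log2 fold change in Vhl/Rassf1a cells minus that in Vhl or WT cells. Named genes were Vhl, Rassf1, Car9, Zmynd10, the Rassf family and neighbouring genes, the 15 highest and 15 lowest called genes with a mean of at least 5 CPM and no overlap, up to 4 members of each gene list with the smallest adjusted p, and the 8 highest and 8 lowest of each difference. Some genes that this rule selects are not reported here. The members, gene lists and tests were chosen with earlier results of these data known. Alternatives were scaling with the size factors of DESeq2 1.42.0, its Wald test, no filter, only the groups compared, a replicate block, offsets corrected for GC content, a minimum log2 change of 1, and leaving out each library. The script was tested on simulated data with known changes. Sequences are RefSeq promoter windows on GRCm38.p6, the first window of each gene.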

Additional observations from a re-analysis of the deposited data

Results flagged for a closer look

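The following named genes had a Cre effect in Vhl/Rassf1a cells that differed, by the test of the difference itself (edgeR quasi-likelihood, adjusted over all genes), from that in Vhl cells. Values are log2 differences, Vhl/Rassf1a minus Vhl, from 3 libraries in each of 4 groups.

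Among genes of the HIF lists the effect was lower in Vhl/Rassf1a cells for Cox4i2 (-0.59), Egln3 (-0.62), Stc2 (-0.85) and Pfkp (-0.27), and higher for Pfkfb3 (0.41) and Bhlhe41 (0.44). Outside these lists it was lower for the vascular factor Pgf (-0.81) and higher for the metallothionein Mt2 (0.56). Arnt2, which fell in both genotypes, had a difference of 0.51.

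Matrix and secreted proteins mostly had a higher effect, namely Vwa1 (2.57), Il1rn (1.77), Mmp3 (1.43), Pi15 (1.36), Mmp13 (1.23), Sned1 (1.22), Pamr1 (1.22), Col18a1 (1.21), Islr (0.95), Dcn (0.76) and Fmod (0.65). The effect on Ccn2 (-0.51) and on Sfrp2 (-1.37) was lower. So was that on Apln (-1.48), Ptprb (-1.08), Kank4 (-1.23), Clic5 (-1.07), Kcnf1 (-1.23), Ankrd1 (-0.59) and Maff (-0.47).

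Among named genes of division, its cyclins and DNA damage the effect was higher for Nek2 (0.52), Bub1b (0.51), Top2a (0.44), Ccna2 (0.33), Fanci (0.55), Ccnd1 (0.35) and Mdm2 (0.25). However, 2 of 42 repair and checkpoint genes and none of 36 replication genes had a higher effect, against 3.44% of all genes tested. A lower effect was found for Mthfd2 at -0.45, Slc7a5 at -0.36, Polr1a at -0.32, Polr1b at -0.29, Hspa9 at -0.20, Hyou1 at -0.27 and Hsph1 at -0.32. Of 19 heat shock genes 2 and of 24 genes of the unfolded protein response 2 were lower in effect, against 2.65% of all genes tested. Without GFP replicate 2 the numbers were 4 and 1, and with offsets corrected for GC content 7 and 3. Further differences were those of Slc7a2 (1.17), Scd1 (0.22), H19 (0.31), Rassf2 (0.68) and Mkrn2 (-0.78).

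Markers of other cell types differed as well: the keratins Krt19 (-0.57) and Krt18 (-1.01), the tubule receptor Lrp2 (-1.06), the muscle genes Myh2 (-1.59), Myh1 (-1.52) and Acta1 (-0.70), the cartilage proteoglycan Acan (-1.32), the fat genes Fabp4 (-0.56) and Cebpa (1.02), the endothelial factor Erg (1.39), and the neural genes Gap43 (0.39) and Tubb3 (0.70). A minimum log2 change of 1 left 4 genes called for this difference over all genes tested, and it was not counted for single genes. Of the 60 differences 15 lost the threshold under at least 1 other alternative, those of Bhlhe41, Ccna2, Cox4i2, Erg, Fabp4, Fanci, Gap43, Hspa9, Hyou1, Krt19, Mdm2, Pfkp, Pgf, Polr1b and Scd1. None of the 60 changed direction.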

How the results depend on the processing

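No called change of a named gene, and no called difference between effects, turned its direction under any alternative. Counts over all genes that moved by over 1.5 times did so as follows, and the cause was not tested. For Vhl/Rassf1a Cre against GFP, with 4919 genes past the threshold, the fit of only the groups compared called 3008, with fewer residual degrees of freedom, and a minimum log2 change of 1 left 270. For the difference from Vhl cells, with 1010 genes, these were 631 and 4; GC-corrected offsets gave 2264, with a replicate block 1945, and without Vhl/Rassf1a GFP replicate 2, chosen after seeing the data, 2081. For the difference from WT cells, with 2454 genes, GC-corrected offsets gave 3990, with a replicate block 3756, without GFP replicate 2 3788, and a minimum log2 change of 1 left 118. Leaving out each library gave 4055 to 4782, 713 to 1186 and 2045 to 2624 genes. The labels do not say whether libraries with the same replicate number are paired. Deviations of same-numbered Cre and GFP libraries of Vhl/Rassf1a correlated at -0.027, -0.164 and -0.215, and no library correlated best with its own number. The GC-linked deviations enter these correlations, so they cannot decide whether the samples were paired. With a replicate block 4463, 700 and 2023 genes passed. Counts of list members in Vhl/Rassf1a Cre against GFP moved too, beside the moves given with the lists. In the fit of only the groups compared, lower members were 3 in place of 7 for oxidative phosphorylation, 5 in place of 8 for the unfolded protein response, 3 in place of 5 for G1 cyclins and inhibitors and for contractile genes, 1 in place of 3 for dioxygenases, 0 in place of 2 for glycogen and p53 targets, and 1 in place of 2 for insulin-like growth factors and neighbours of Rassf1. Higher members were 0 in place of 2 for oxidative phosphorylation and the unfolded protein response, 1 in place of 2 for heat shock, interferon signalling, tubule and muscle markers, and 0 in place of 1 for repair genes and neighbours of Vhl. With GC-corrected offsets, higher members were 9 in place of 3 for contractile genes, 7 in place of 4 for G1 genes and NRF2 targets, 4 in place of 2 for oxidative phosphorylation, heat shock and the unfolded protein response, 5 in place of 3 for endothelial markers, 3 in place of 1 for neighbours of Vhl and 2 in place of 1 for macrophage markers, and lower members were 4 in place of 0 for mitochondrially encoded genes and 3 in place of 1 for fibroblast markers. For the difference from Vhl cells, GC-corrected offsets gave 9 in place of 4 higher effects for other HIF-responsive genes, 5 in place of 2 for glycolysis and 19 in place of 11 lower effects for ribosome biogenesis. DESeq2's Wald test called 4974, 1251 and 2631. The minimum log2 change of 1 was not counted for single named genes. Under every other alternative 201 of 216 changes of named genes, 45 of 60 differences from Vhl cells and 158 of 178 from WT cells kept their call. The changes that lost it were those of Wt1, Pi15, Des, Cubn, Kank4, Vgll3, Vgll4, Irak2, Hspa5, Nf2, Uqcrc2, Tamm41, Cand2, Sox5 and Lsmem2.

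With 3 libraries a group and no record of separate cultures, the errors may be technical only. Changes of division, repair and ribosome biogenesis genes were small, and in the fit of only the groups compared 22 of 30 mitosis, 18 of 25 replication, 10 of 17 repair and 16 of 27 ribosome biogenesis genes were called lower. Genes near or below 1 CPM, such as Zmynd10, H2-Eb1, Hif3a, Slc38a3 and Lsmem2, rest on few reads.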
